A study of Mus musculus with 4 samples.

Results

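The potassium channel genes were 84 of the 19465 genes in a spatial count table of mouse brain. They were chosen by symbol: every gene whose name begins with Kcn followed by a letter and a digit, and Kcnip1 to Kcnip4, whose proteins bind the Kv4 channels. Every one of the 84 had counts. The sections were coronal, formalin-fixed and paraffin-embedded, trimmed to show the striatum, and measured with the 10X Genomics Visium CytAssist assay for such tissue, which counts probe pairs on a grid of spots, each covering several cells. They came from 4 mice: 2 wild type and 2 heterozygous for Celsr3, an adhesion G protein-coupled receptor needed for axon tract formation. The wild-type mice were the controls, none of the mice was treated, and the strain, age, sex and the kind of Celsr3 allele were not given in the sources used here. The table joined all sections, and its spot barcodes carried an ending from 1 to 4 that matches no mouse, genotype or replicate number in the labels. The 4 barcode sets were therefore assigned to no mouse, the genotypes were not compared, and the table was treated as 1 sample with no test and no p-value.

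Potassium channels let potassium leave or enter a cell and so set its resting voltage, the length of its spikes and how often it fires. Voltage-gated channels (the Kv families) open when a cell is depolarised, inward rectifiers pass potassium best near the resting voltage, channels of the 2-pore family carry leak current, and the SK family opens with calcium. Some members conduct nothing alone: the electrically silent subunits join Kv2 channels, and the Kcnip and Kcne proteins attach to pore-forming subunits and change their gating. In the brain, striatal projection neurons are known for strong inward rectification and for A-type currents that delay their first spike. Fast-spiking neurons are known for Kv3 channels, astrocytes for clearing potassium through Kcnj10, and the choroid plexus, which secretes the cerebrospinal fluid, for epithelial potassium channels.

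The 100 bases directly before the start of the gene are shown first for some of the members. Each of these was called higher below in the striatum, the cortex, the thalamus or the choroid plexus. Other members were called in these areas too. The sequences are RefSeq's for GRCm38.p6, written 5′ to 3′ on the strand of the gene. Capitals mark 3 searched motifs on either strand: the GC box GGGCGG, the TATA box TATAAA and the CCAAT box CCAAT. The window of Kcna4 is chr2:107290489-107290588 on the plus strand, that of Kcnj2 is chr11:111066064-111066163 on the plus strand, and that of Kcnk4 is chr19:6934516-6934615 on the minus strand. Kcnj5 is read from chr9:32344345-32344444 on the minus strand, Kcnj13 from chr1:87394730-87394829 on the minus strand and Kcne2 from chr16:92292289-92292388 on the plus strand, where the outermost of 2 listed starts was used.
Kcna4: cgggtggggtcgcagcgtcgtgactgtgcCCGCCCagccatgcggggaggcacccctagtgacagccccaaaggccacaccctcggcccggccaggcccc
Kcnj2: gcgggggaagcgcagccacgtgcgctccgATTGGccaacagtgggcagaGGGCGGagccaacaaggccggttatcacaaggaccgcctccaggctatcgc
Kcnk4: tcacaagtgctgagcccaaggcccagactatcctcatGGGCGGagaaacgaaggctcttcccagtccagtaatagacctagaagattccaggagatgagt
Kcnj5: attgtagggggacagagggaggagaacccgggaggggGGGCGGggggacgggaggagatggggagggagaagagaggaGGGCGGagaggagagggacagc
Kcnj13: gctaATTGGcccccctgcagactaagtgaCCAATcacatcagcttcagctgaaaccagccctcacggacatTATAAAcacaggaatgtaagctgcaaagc
Kcne2: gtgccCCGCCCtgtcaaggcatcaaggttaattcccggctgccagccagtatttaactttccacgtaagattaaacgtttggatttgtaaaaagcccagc
Kcnj13 held a TATA box whose first base lay 29 bases before the start, and it held 2 CCAAT boxes. The windows of Kcna4, Kcnk4 and Kcne2 held 1 GC box each, that of Kcnj5 held 2, and that of Kcnj2 held 1 GC box and 1 CCAAT box. RefSeq windows were matched for 60 of the 84 members, giving 81 windows. Of these 1.23% held a TATA box, against 5.56% of 32851 windows of all genes. A GC box was in 35.8% of the members' windows and 24.7% of all, and a CCAAT box in 12.3% and 18.9%. A match to these letters is a description of the sequence and not evidence of binding.

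The 4 sets held 3055, 2808, 3444 and 3294 spots after 1 spot with under 500 counts was left out of 12602, and their summed counts ran from 90752475 in set 4 to 174761560 in set 1. The median counts per spot were 52481, 38181.5, 44972 and 26444.5 in sets 1 to 4. Of 4744 different barcodes, 1613 occurred in all 4 sets. Celsr3 was counted at 31.7, 46.8, 26.0 and 47.2 CPM (the counts of a gene per 1000000 counts of all genes in the same spots), and these values were not used to assign sets. Spots were grouped into 27 clusters without the channel genes, and 23 clusters took the name of the area whose marker genes they held. The area names stand for spots where those markers were high, not for traced anatomy. They covered 10887 spots in cortex (claustrum markers included), striatum, cholinergic basal forebrain, hypothalamus (extended amygdala markers included), thalamus, white matter, ventricle lining, choroid plexus and meninges. Summed area markers were 2.62 to 239 times as high inside an area as in the other spots of the same set. The exception was the choroid plexus of set 2, whose 36 spots had choroid markers at 335 CPM against 253 CPM elsewhere and were not used. Different clusters made up the striatum, the cortex and the hypothalamus in different sets. The hypothalamus cluster led by Avp and Oxt held 215, 1, 125 and 213 spots of sets 1 to 4. In set 2 the hypothalamus was instead made up of clusters with extended amygdala markers, with 241 and 38 spots. Thalamus markers formed an area in sets 1 and 4 only, with 149 and 298 spots, and the ventricle lining in sets 3 and 4 only, with 42 and 43 spots.

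A gene was called higher or lower in an area when it differed at least 2-fold, a difference of 1 on log2(CPM + 1), from the other spots of the same set, in every set that had at least 30 spots of the area. Fold differences are on that scale, which understates those of genes with few counts. Ratios, also where given as times as high, are of CPM with nothing added. Of the 84 members, 65 passed a mean of 5 CPM over the sets, as did 11466 genes of the table. The other 19 ran from Kcnk18, with 103 counts, to Kcnu1, with 2582, and got no call. The members that passed were 6 of 8 Kv1 (Kcna), 2 of 2 Kv2 (Kcnb), 4 of 4 Kv3 (Kcnc), 3 of 3 Kv4 (Kcnd), 4 of 5 Kv7 (Kcnq) and 7 of 8 Kv10 to Kv12 (Kcnh) genes. They also were 9 of 10 electrically silent subunits, 4 of 4 Kcnip, 2 of 4 Kcne, 12 of 15 inward rectifiers (Kcnj), 8 of 14 channels of the 2-pore family (Kcnk), 3 of 4 SK and IK channels (Kcnn) and 1 of 3 Kcnt and Kcnu genes. Probes differ in how well they bind, so levels of different genes are not ranked here. In spots, fewer cells of a type and less RNA per cell cannot be told apart.

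Among the 65 members, 55 were called in at least 1 of the 9 areas, where 31.5% of all genes were. Of the 65, 32 were higher somewhere, against 22.6% of all genes, 51 lower somewhere, against 19.8%, and 28 both, against 10.9%. Kcnj13 and Kcne2 in the choroid plexus and Kcnj5 in the thalamus passed the level filter only through the area where they were called higher, so these 3 calls are given as a description. The other calls of Kcnj5 were likewise made only because its thalamic spots took it past the filter. They include the lower calls in the striatum and the cortex and the higher call in the ventricle lining. The lower calls of Kcne2 and Kcnj13 in the thalamus rested in the same way on the choroid-marker spots. The 10 members with no call included Kcna3, Kcnd1, Kcng2, Kcnip3, Kcnj8 and Kcnn2. Over the 6 areas present in all 4 sets, 42 of the 65 members (64.6%) had their highest level in the same area in every set, against 5932 of the 11466 genes (51.7%). That area was the striatum for 18 members, the cortex for 13, the basal forebrain for 5, white matter for 4, the meninges for 2 and the hypothalamus for 0. Of the 5932 genes, it was the striatum for 1159, the cortex for 714 and the basal forebrain for 346. It was white matter for 1452 of them, the meninges for 821 and the hypothalamus for 1440.

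**Figure D1:**
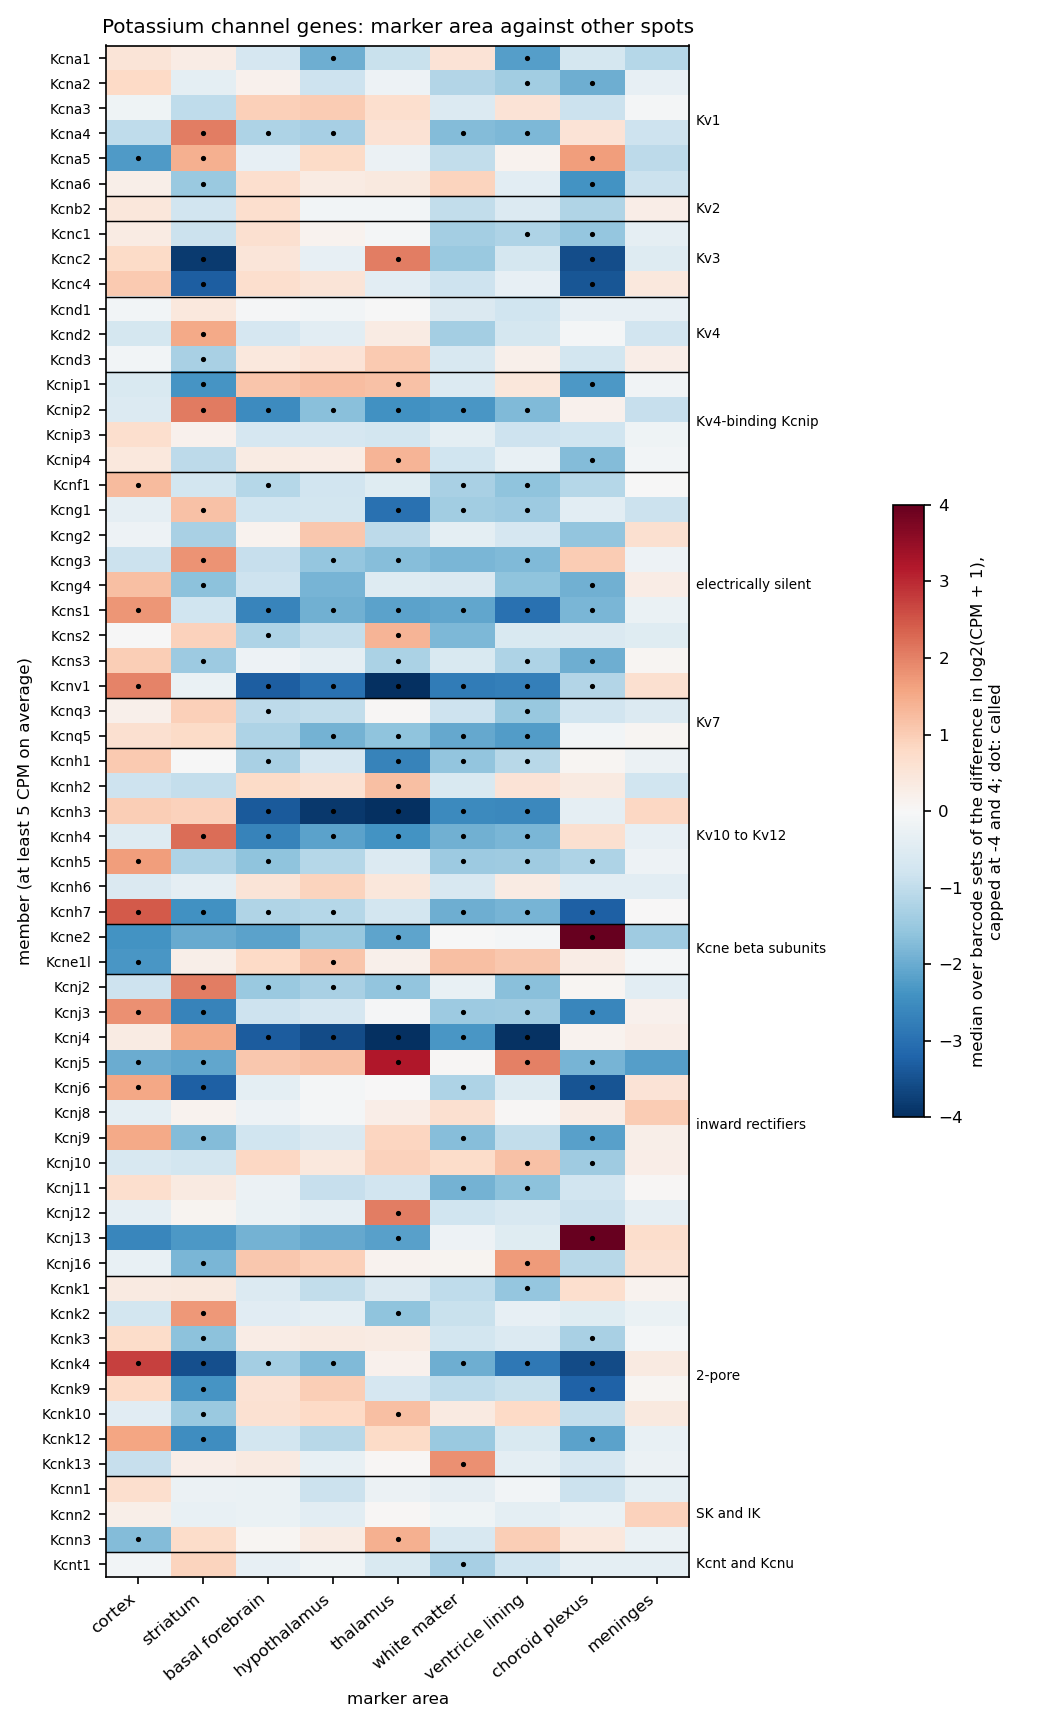
Median log2 difference over the barcode sets, on log2(CPM + 1), between an area and the other spots of the same set, for 61 of the members that passed (rows, by family) in the 9 areas (columns). Dots mark calls. The striatum holds 9 members called higher and 18 called lower, and the choroid plexus 3 and 22.

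In the striatum, Kcna4, Kcnj2, Kcnip2, Kcnd2 and Kcnh4 were among the members called higher, and Kcnc2, Kcnc4, Kcnj3, Kcnj6 and Kcnj9 among those called lower. Of the 12 inward rectifiers that passed, 1 was called higher and 5 lower, of the 4 Kv3 genes 0 and 2, and of the 3 Kv4 genes 1 and 1. Of the 65 members, 9 were called higher, where 2.85% of all genes were, and 18 were called lower, where 6.99% were. The median difference was -0.40 over the members and -0.08 over all genes. Kcna4, which encodes an A-type Kv1 subunit that inactivates quickly, was at 164, 219.8, 153 and 236 CPM in the striatum of sets 1 to 4 and at 40.3, 49.7, 31.5 and 62.9 CPM in the other spots. In each set its striatal level lay above that of the other spots, and the ratio in set 3 was 4.85 (95% counting interval 4.65 to 5.05). Kcnj2, a strong inward rectifier that holds striatal neurons at a negative resting voltage, was at 127, 149.9, 136 and 136 CPM against 33.8, 36.8, 31.6 and 25.4 CPM. The striatal levels of Kcnj2 were above its levels elsewhere in all 4 sets, and its log2 difference ran from 1.88 to 2.38.

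Kcnip2, a calcium-binding protein that attaches to Kv4 channels, was at 722, 419.9, 715 and 382 CPM in the striatum against 154, 109, 204 and 81.6 CPM. Its level differed between sets in both places, while the log2 difference stayed between 1.80 and 2.22. Its pore partner Kcnd2, the main Kv4 subunit of dendrites, was at 297, 289, 311 and 287 CPM against 110.1, 96.0, 106 and 101 CPM, a log2 difference of 1.42 to 1.58. Kcnh4, a voltage-gated channel of the Kv10 to Kv12 group, was at 56.7, 62.7, 54.5 and 57.5 CPM against 9.89, 18.0, 10.5 and 11.6 CPM. The 4 others called higher in the striatum were Kcnk2, a mechanosensitive leak channel, the silent subunits Kcng1 and Kcng3, and the Kv1 gene Kcna5. Kcnk2 was at 104, 78.3, 106 and 70.5 CPM against 30.9, 22.6, 34.5 and 19.6 CPM. Kcng3 was at 61.3, 32.4, 54.3 and 32.4 CPM against 12.6, 10.9, 17.6 and 7.22 CPM, with sets 1 and 3 above sets 2 and 4 in the striatum.

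Kcnc2, a Kv3 subunit that lets fast-spiking neurons repolarise quickly, was the member furthest below the other spots in the striatum by its smallest difference. It was at 13.3, 8.11, 9.78 and 14.6 CPM there against 208, 122, 184 and 172 CPM, a log2 difference of -4.10 to -3.47. Kcnc4, another Kv3 gene, was at 6.77, 11, 8.68 and 17.5 CPM against 73.4, 158, 96.0 and 166 CPM. The Kv3 genes did not all follow: Kcnc1 was at 90.7, 80.3, 75.1 and 132 CPM in the striatum and was not called. The G protein-gated inward rectifiers Kcnj3, Kcnj6 and Kcnj9, which open when transmitters such as dopamine or GABA act on their receptors, were called lower. The fourth of this group, Kcnj5, was called lower too, at 0.260 to 1.34 CPM. It passed the level filter only through the thalamus, with a mean of 4.08 CPM without it, so its call is a description. Kcnj3 was at 22.8, 14.5, 19.5 and 26.5 CPM against 141, 126, 141 and 120.4 CPM, Kcnj6 at 5.40, 3.05, 4.87 and 5.43 CPM against 58.6, 41.7, 57.8 and 41.4 CPM. Kcnj9 differed less, with a log2 difference of -1.85 to -1.54. Summed interneuron markers were 1073 to 1494.8 CPM in the striatum and 1006 to 1568 CPM in the cortex. The marker list includes Gad1 and Gad2, which are not limited to interneurons, so the sums do not compare interneuron content. The part of interneurons in the Kcnc2 and Kcnc4 results was not tested.

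In the cortex 8 members were called higher, where 2.33% of all genes were, and 4 lower, where 4.25% were. Scaling by TMM or by RLE factors, which move all genes of the cortex up by 0.23 and 0.25 in the median, gave 14 higher and 4 lower, while the shares of all genes went to 3.44% higher and 2.93% lower with TMM and 3.5% and 2.9% with RLE. The median difference was 0.23 over the members and -0.12 over all genes. Kcnk4, a leak channel opened by membrane stretch, was at 46.9, 52.7, 53.6 and 72.6 CPM in the cortex against 7.79, 5.63, 5.23 and 17.1 CPM. The groups did not overlap, and the ratio ran from 4.25 (3.94 to 4.59) in set 4 to 10.3 (9.31 to 11.3) in set 3. Kcnk4 was named for its large difference, so this gap is a description. Kcnh7, a channel of the ether-a-go-go-related kind that closes slowly, was at 179, 250.4, 184 and 218 CPM against 32.8, 43.6, 29.2 and 53.0 CPM. Kcnv1, a silent subunit that makes Kv2 channels open at other voltages, was at 104, 112, 87.1 and 124 CPM against 22.7, 31.5, 24.1 and 19.3 CPM. Another silent subunit, Kcns1, was at 37.0, 55.7, 31.1 and 56.4 CPM against 11, 15.9, 5.43 and 16 CPM.

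The remaining members called higher in the cortex were Kcnh5, a Kv10 to Kv12 channel, the silent subunit Kcnf1, and Kcnj3 and Kcnj6. Kcnj3 was at 224, 165, 192 and 173 CPM in the cortex and Kcnj6 at 85.1, 52.9, 74.1 and 57.9 CPM, so that both genes were above the other spots in the cortex and below them in the striatum. Kcnf1 was at 105, 94.5, 96.0 and 95.8 CPM against 39.7, 39.6, 37.7 and 42.1 CPM, and its levels over whole sets were 63.2 to 65.0 CPM. Lower in the cortex were the beta subunit Kcne1l, at 1.61, 2.22, 1.40 and 2.22 CPM against 13.5, 14.9, 9.71 and 15.7 CPM, Kcna5, Kcnj5 and Kcnn3. Kcna5 was at 1.39 to 2.53 CPM in the cortex, and its call was lost when 10 CPM were added in place of 1. Kcnn3, an SK channel, was at 13.7, 15.2, 13.5 and 14.4 CPM against 48.9, 51.7, 49.8 and 44.4 CPM.

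**Figure D2:**
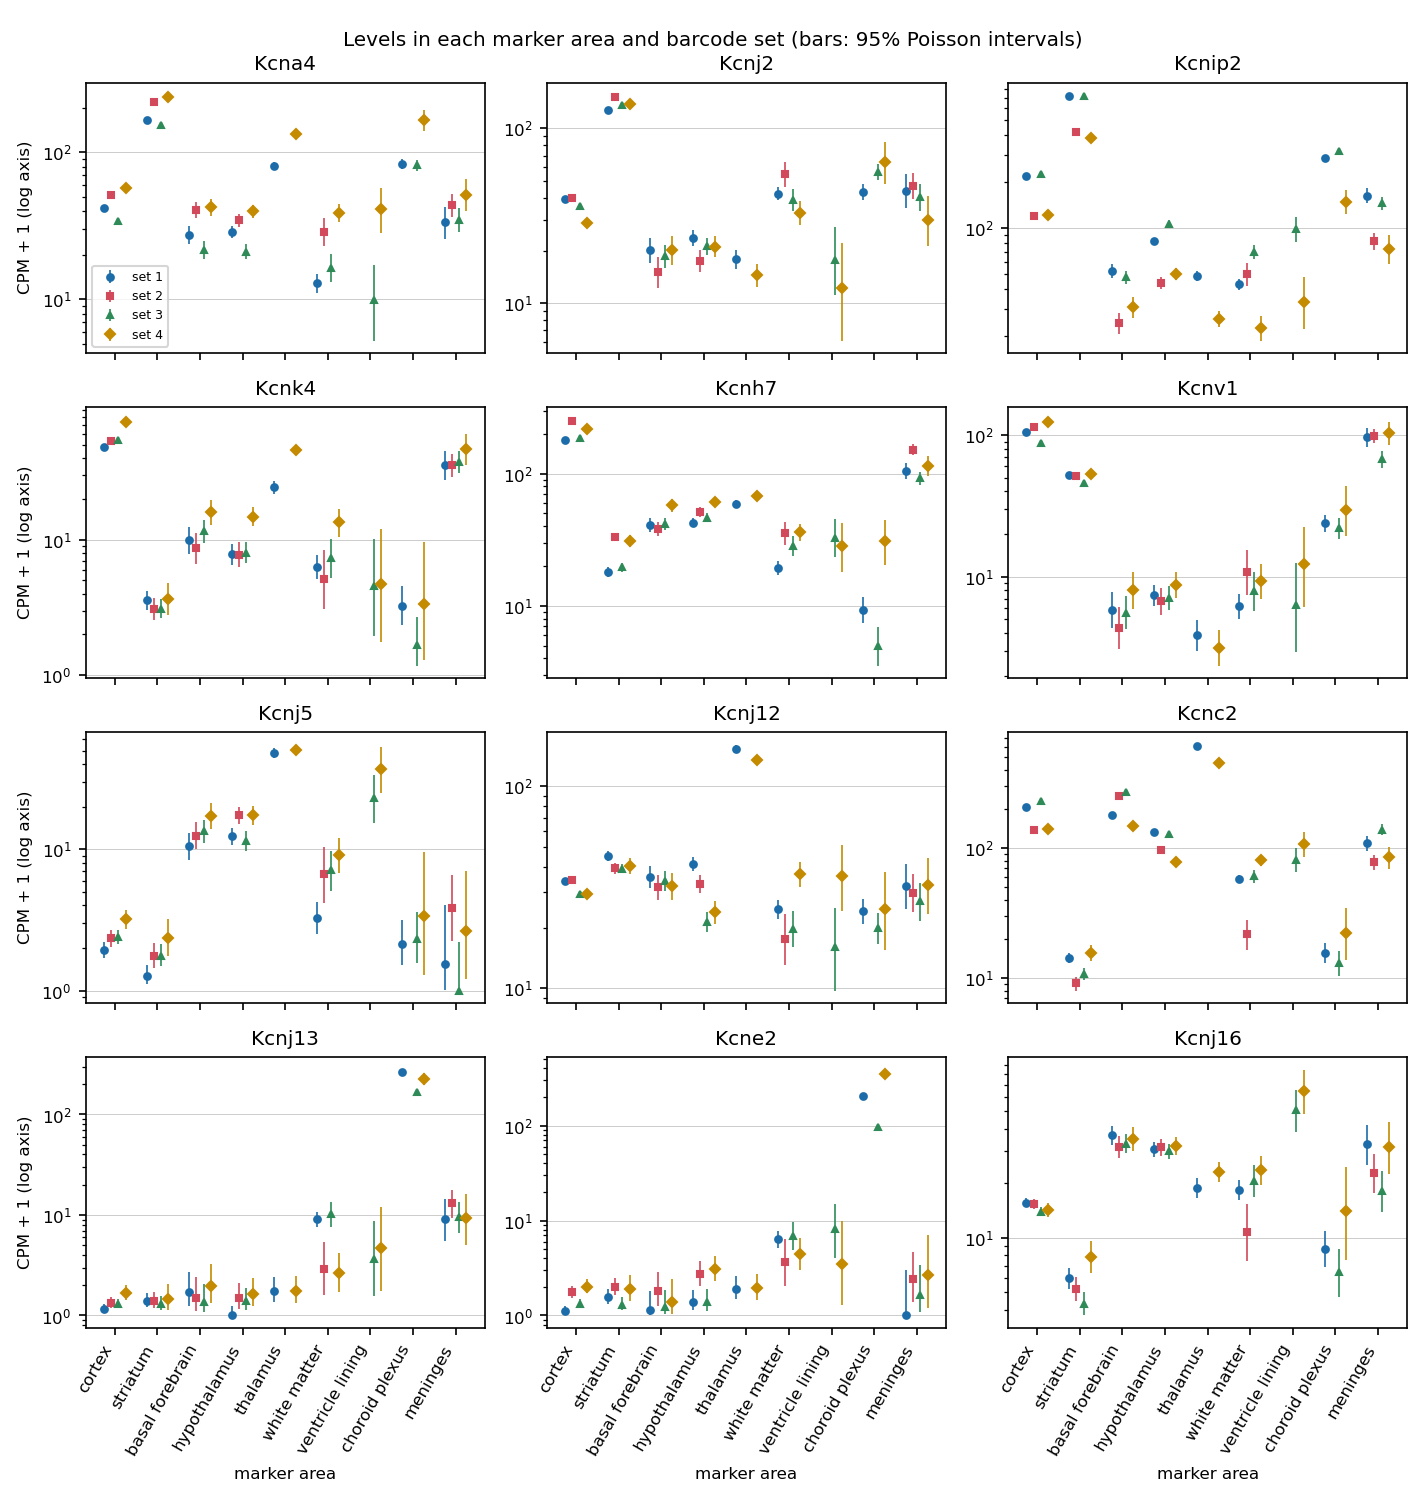
Level of 12 members in each area (horizontal axis), as CPM + 1 on a log axis, with 1 point per barcode set and bars for the 95% counting interval. Kcna4, Kcnj2 and Kcnip2 are within each set highest in the striatum, Kcnk4, Kcnh7 and Kcnv1 are above the other spots in the cortex, and Kcnj13 and Kcne2 reach 95.5 to 344 CPM in the choroid plexus points.

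Within the cortex, 4 clusters of layer or claustrum markers were compared with the other cortical spots. The Rorb-led cluster, where markers of layer 4 were high, was present in sets 1, 2 and 3. It had 3 members called higher, against 0.593% of all genes, and 2 lower, against 1.34%. Kcnh5 was at 451, 223 and 422 CPM there against 133, 62.5 and 119 CPM in the other cortical spots. Kcns1 was at 86.4, 121 and 65.6 CPM against 30.5, 43.6 and 23.6 CPM, and Kcnip2 at 432, 234 and 391 CPM against 189, 96.6 and 185 CPM. Set 2 had the lowest Kcnh5 and Kcnip2 and the highest Kcns1 in and outside this cluster, while the log2 differences ran from 1.75 to 1.82 for Kcnh5, 1.44 to 1.47 for Kcns1 and 1.07 to 1.26 for Kcnip2. The silent subunits Kcng1 and Kcng3 were lower there, Kcng1 at 5.39, 5.04 and 7.03 CPM against 21.3, 17.9 and 22.3 CPM.

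The cluster with markers of layer 2/3, led by Vip and Lamp5 and also present in sets 1 to 3, had 2 members called higher, against 0.637% of all genes, and 2 lower, against 1.70%. Kcnh4 was at 34.2, 42.5 and 30.6 CPM against 9.59, 16.5 and 9.42 CPM in the other cortical spots, and Kcng3 at 28.0, 20.7 and 23.5 CPM against 10.0, 8.20 and 10.4 CPM. Both genes were also called higher in the striatum. Kcna6, a Kv1 subunit of axons, was lower at 49.7, 48.6 and 65.3 CPM against 139, 145 and 157 CPM, and Kcnk2 was lower as well. White-matter markers summed to 1063 to 2054 CPM in this cluster and 5815 to 8397 CPM in the whole cortex, and their part in the Kcna6 result was not tested.

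The Nr4a2-led cluster, with claustrum markers, had 1 member called higher, against 0.715% of all genes, and 2 lower, against 0.593%. Kcna5 was at 5.14, 6.14, 4.79 and 8.17 CPM there against 1.34, 1.07, 0.913 and 1.52 CPM, and the silent subunits Kcng4 and Kcns3 were lower. Without set 1, 6 members were called lower, and without set 3, 2 were called higher. The Ccn2-led cluster, with markers of layer 6b, had 0 members called higher, against 1.94% of all genes, and 7 lower, against 1.51%. Kcnh5 was at 53.3, 25.8, 42.8 and 22.6 CPM there against 179.5, 94.3, 185 and 91.7 CPM in the other cortical spots. The others were Kcng3, Kcnq5, Kcnb2, Kcnk12, Kcng2 and Kcns1, and without set 2 there were 12. White-matter markers summed to 21047 to 31883 CPM in the Ccn2-led cluster, above the 5815 to 8397 CPM of the whole cortex, and their part in these lower levels was not tested.

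**Figure D3:**
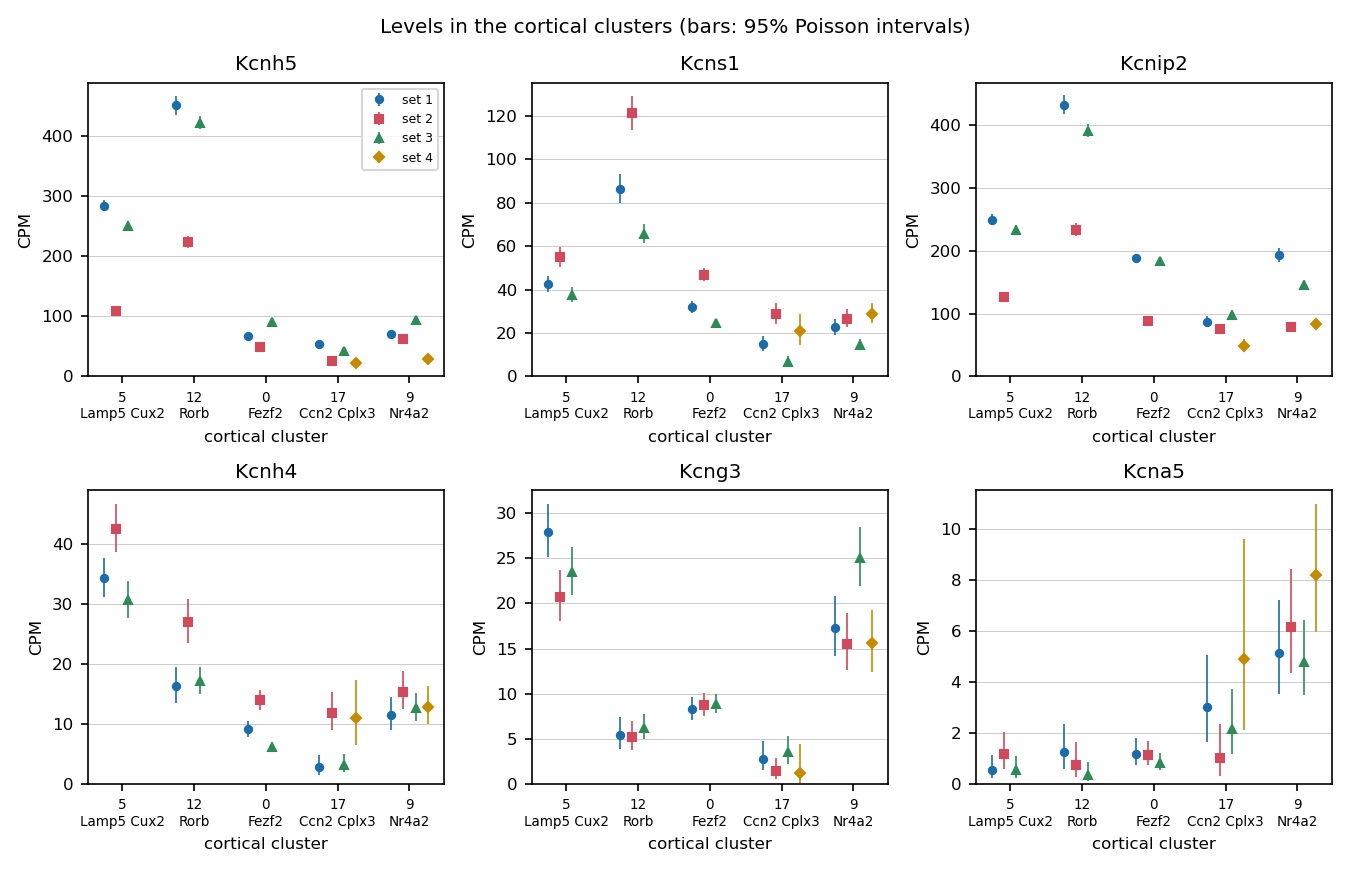
Level of Kcnh5, Kcns1, Kcnip2, Kcnh4, Kcng3 and Kcna5 in 5 cortical clusters (horizontal axis), as CPM by barcode set with 95% counting intervals. Kcnh5 is at 223 to 451 CPM in the Rorb-led cluster and at 22.6 to 53.3 CPM in the Ccn2-led cluster.

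In the thalamus, Kcnj5, Kcnj12, Kcnc2 and Kcnn3 were among the members called higher in both sets that held it. Of the 12 inward rectifiers that passed, 2 were called higher and 3 lower. Of the members, 9 were called higher, against 2.51% of all genes, and 15 lower, against 5.24%. The 15 include Kcne2 and Kcnj13, which passed the level filter only through the choroid plexus. Their means without it were 1.09 and 1.12 CPM, so these lower calls are a description. Kcnj5, a G protein-gated inward rectifier, was at 47.3 and 49.6 CPM in sets 1 and 4 against 3.22 and 5.90 CPM, with ratios of 14.7 (13.0 to 16.5) and 8.40 (7.41 to 9.53). Kcnj12, a strong inward rectifier like Kcnj2, was at 153 and 135 CPM against 36.0 and 32.2 CPM. Kcnc2, low in the striatum, was at 609 and 447 CPM against 139 and 113 CPM. Summed interneuron markers were 173 and 277 CPM in the thalamus, and their part in the Kcnc2 result was not tested.

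Kcnn3 was at 94.6 and 69.3 CPM in the thalamus against 31.7 and 27.7 CPM. The other 5 called higher there were Kcnip4, Kcnip1, the silent subunit Kcns2, Kcnh2, which encodes a slowly closing channel related to Kcnh7, and the leak channel Kcnk10. Kcnip4 was at 153 CPM in set 1 and 49.1 CPM in set 4, and its other spots moved in the same order, at 55.6 and 19.9 CPM. The lowest members were Kcnj4, a strong inward rectifier, at 2.08 and 3.81 CPM against 100.02 and 146 CPM, and Kcnh3, a Kv10 to Kv12 channel of the forebrain, at 1.85 and 2.51 CPM against 53.0 and 135 CPM. Kcnj4, Kcnj2 and Kcnj12 belong to the same group of strong rectifiers. In the thalamus Kcnj12 was above the other spots while Kcnj4 and Kcnj2 were below them.

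The basal forebrain had 0 members called higher, where 0.645% of all genes were, and 16 lower, where 3.24% were. Without set 4, 2 were called higher. The hypothalamus had 1 called higher, where 2.33% were, and 14 lower, where 3.72% were. Kcnj4 and Kcnh3 were low in both: Kcnj4 at 5.70, 15.2, 10.4 and 13.5 CPM in the basal forebrain and at 6.52, 9.16, 7.49 and 12.6 CPM in the hypothalamus. Kcnh3 was at 4.97, 11.3, 5.78 and 13.1 CPM in the basal forebrain and at 2.53, 9.07, 8.87 and 8.70 CPM in the hypothalamus. In the cortex and striatum the same genes were at 86.9 to 320.0 CPM for Kcnj4 and 77.1 to 216 CPM for Kcnh3, and the values did not overlap. Both genes were named for their low levels, so this gap is a description. Kcnv1 was low in both areas too, at 3.35 to 7.06 CPM in the basal forebrain and 5.69 to 7.75 CPM in the hypothalamus. The member called higher in the hypothalamus was Kcne1l, at 18.2, 25.4, 11.9 and 22.1 CPM against 8.39, 7.34, 5.36 and 9.04 CPM. Its log2 difference was at least 1.01 in every set, and the call was lost under most other settings. Without set 2 or without set 4, 2 members were called higher in the hypothalamus.

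In white matter 1 of the 65 members was called higher, where 4.77% of all genes were, and 22 lower, where 5.47% were. The median difference was -0.98 over the members and -0.06 over all genes. With TMM factors 31 members were lower, where 8.56% of all genes were, and 3.43% of all genes were higher. Without set 1, 2 were called higher. The member called higher was Kcnk13, a channel of the 2-pore family known from microglia, at 27.2, 42.2, 19.99 and 35.1 CPM against 6.38, 6.31, 5.37 and 10.2 CPM. Summed microglia markers were 197 to 288 CPM in white matter and 117 to 143 CPM in the cortex, oligodendrocyte precursor markers 142 to 164 and 45.7 to 50.7 CPM, and their part in this result was not tested. Kcnip2 was at 42.3, 49.0, 69.1 and 21.5 CPM against 271, 184, 313 and 124 CPM, and Kcnv1 at 5.18, 9.8, 6.95 and 8.32 CPM against 55.5, 70.5, 54.5 and 63.1 CPM. The groups did not overlap for Kcnip2 or for Kcnv1. Both were taken from the members called lower, so this gap is a description. Kcna1 and Kcna6, Kv1 subunits of axons, were not called lower there. Kcna1 was at 163, 171, 143 and 128 CPM and Kcna6 at 193, 243, 242 and 225 CPM. In each set these were their highest levels of the 6 areas present in all sets. The Kv1 genes did not all follow: of the 6 that passed, 0 were called higher and 1 lower in white matter. Kcna2 was at 29.99 to 47.5 CPM there and at 94.5 to 116 CPM in the cortex. Kcna3 was at 20.7 to 32.6 CPM in white matter and 35.9 to 43.8 CPM in the cortex.

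The ventricle lining had 3 members called higher, where 6.53% of all genes were, and 26 lower, where 5.76% were, over 2 sets with 1131943 and 802713 counts. With TMM factors 2 members were higher, where 4.13% of all genes were, and 30 lower, where 9.11% were. The 3 called higher in CPM were inward rectifiers. Of these, Kcnj5 passed the level filter only through the thalamus, with a mean of 4.08 CPM without it, so its call is a description. Kcnj16, which pairs with Kcnj10 to form a channel sensitive to pH, was at 49.5 and 63.5 CPM in sets 3 and 4 against 14.1 and 18.9 CPM, with ratios of 3.5 (2.64 to 4.56) and 3.37 (2.5 to 4.45). Kcnj10 was at 481 and 690.2 CPM against 219 and 301 CPM, and Kcnj5 at 22.1 and 36.1 CPM against 3.43 and 10.9 CPM. Summed astrocyte markers were 2368 and 2325 CPM there and 682 to 833 CPM in the cortex, and their part in the Kcnj10 and Kcnj16 results was not tested. Kcnj4 was the member furthest below the other spots in the ventricle lining, at 5.30 and 6.23 CPM against 81.5 and 130.2 CPM.

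In the choroid plexus, the CPM of Kcnj13 and Kcne2 were at least 80.0 times as high as in the other spots of each set used. Of the members, 3 were called higher, where 4.60% of all genes were, and 22 lower, where 6.69% were, over sets 1, 3 and 4. Without the choroid-marker spots the mean levels of Kcnj13 and Kcne2 over the sets were 1.12 and 1.09 CPM, under the filter of 5 CPM, so 2 of the 3 higher calls came from genes that passed through these spots. Kcnj13, an inward rectifier of epithelia, was at 266, 167 and 225 CPM against 1.2, 1.75 and 0.834 CPM, with ratios of 222 (192 to 258), 95.5 (83.6 to 109) and 269.7 (205 to 357). Kcne2, a beta subunit that pairs with Kcnq1 in the choroid plexus, was at 204, 95.5 and 344 CPM against 0.917, 1.19 and 1.29 CPM. Kcnq1 itself did not pass the level filter and was at 0.756, 1.48 and 2.38 CPM in the choroid plexus. The third was Kcna5, at 21.7, 20.8 and 38.1 CPM against 7.54, 5.86 and 7.59 CPM. Kcna5 was also called higher in the striatum, at 14.3 to 20.2 CPM. In the 36 spots of set 2 that clustered here without choroid markers, Kcnj13 was at 1.77 CPM and Kcne2 at 0.884 CPM, from 2 counts and 1 count. Kcna5 was raised in those spots too, at 29.2 CPM against 8.25 CPM in the other spots of set 2. The choroid-marker spots also held neuronal channel genes, Kcnj4 at 101, 77.3 and 219 CPM and Kcnip2 at 283, 317 and 148 CPM. In the cortex these genes were at 86.9 to 181 and 118 to 222 CPM. Away from the choroid plexus, Kcnj13 was at 8.09 to 12.1 CPM in the meninges and 1.62 to 9.13 CPM in white matter, and at 0.674 CPM or below in the cortex.

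The meninges had 0 members called higher, where 2.59% of all genes were, and 0 lower, where 1.73% were. Leaving out set 2 gave 1 higher and 2 lower, and leaving out set 1 gave 1 lower. Kcnn2, the SK channel with the most counts of its family, was at 115, 117, 102 and 162 CPM in the meninges, in each set the highest of the 6 areas present in all sets. Kcnj8, an inward rectifier of pericytes and smooth muscle that forms channels with Abcc9, was at 10.2, 17.4, 8.89 and 15.8 CPM in the meninges and 3.91 to 6.06 CPM in the cortex. Summed pericyte and smooth muscle markers were 427 to 764 CPM in the meninges and 111 to 175 CPM in the cortex. The call on Kcnj8 was not reached in every set.

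Of the 4 clusters that took no area name, 3 had members called higher. The cluster led by Pvalb and Six3, in sets 1 and 4 with 61 and 90 spots, had 8 called higher, where 1.60% of all genes were, and 20 lower, where 6.97% were. Kcng4, a silent subunit, was at 31.1 and 119 CPM there against 4.07 and 11.9 CPM. Kcnc1, a Kv3 subunit of fast-spiking neurons, was at 366 and 556 CPM against 142 and 207 CPM. Kcnip1 was at 278 and 309 CPM against 58.7 and 59.7 CPM, and Kcnh2 at 234 and 229 CPM against 48.9 and 52.4 CPM. Kcns1, Kcns3, Kcnk3 and Kcnj12 made up the 8. Interneuron markers summed to 8656 and 12690 CPM in that cluster, against 1006 to 1568 CPM in the cortex, and their part was not tested. Kcnv1 was at 0.901 and 1.48 CPM and Kcnh3 at 2.70 and 1.11 CPM, against 53.1 and 62.0 CPM and 50.4 and 123 CPM.

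The cluster led by Lhx8 and Etnppl, in sets 1, 3 and 4, had 2 members called higher, where 2.26% of all genes were, and 20 lower, where 4.88% were. Kcnj10 was at 778, 714 and 693 CPM there against 291, 209 and 289.7 CPM, and Kcne1l at 30.1, 22.5 and 36.6 CPM against 8.41, 5.47 and 9.37 CPM. Astrocyte markers summed to 1708 to 1957 CPM in that cluster, against 682 to 833 CPM in the cortex, and their part in the Kcnj10 result was not tested. The cluster led by Lbhd2 and Ctxn3, in sets 2 and 3, had 3 called higher, where 1.82% were, and 18 lower, where 3.77% were. Kcng2, a silent subunit, was at 43.7 and 11.8 CPM there against 5.84 and 3.36 CPM, Kcnn3 at 95.8 and 77.2 CPM against 31.5 and 29.8 CPM, and Kcnip1 at 102 and 134 CPM against 41.1 and 47.3 CPM. Kcnc2 was low there as in the striatum, at 24.6 and 33.5 CPM against 99.9 and 158 CPM.

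Families differed in how alike their members were. The members of known or likely channel pairs were set side by side by the Pearson correlation of their levels over the 9 areas. The level was the median log2(CPM + 1) over the sets of an area. Areas were present in different sets, so differences between sets enter these values. The areas share libraries and are not independent, so no p is given. Kcnj3 with Kcnj6 reached 0.942 and Kcnj3 with Kcnj9 reached 0.930, the highest of the 17 pairs. Kcnj8 with Abcc9 was at 0.865, Kcnj11 with Abcc8, the subunits of a channel that closes with ATP, at 0.812 and Kcnj10 with Kcnj16 at 0.820. Kcnq1, which did not pass the level filter, with Kcne2 was at 0.741 and Kcnc1 with Kcnc2 at 0.725. Kcnd2 with Kcnip2 was at 0.632, while Kcnd2 with Kcnip4 was at 0.0123 and with Kcnip1 at -0.43. Kcnip1 was low in the striatum, at 10.8 to 12.9 CPM, where Kcnd2 was high. Kcna1 with Kcna2 was at 0.280 and Kcna1 with Kcnab2 at 0.40. Kcnd3 with Kcnip3 was at -0.49 and Kcnt1 with Kcnt2 at -0.0079, where Kcnt2 did not pass the level filter. The median was 0.632 over all 17 pairs compared and 0.134 over all 2080 pairs of members that passed.

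Kcnip3 was called in no area and was at 143, 154, 154 and 146 CPM over whole sets. Kcnk1, a 2-pore channel, was called only as lower in the ventricle lining, at 59.2 and 67.3 CPM. Kcnt1, a channel opened by sodium, was called only as lower in white matter, at 24.6 to 32.0 CPM, and its striatal levels were 107 to 146 CPM. Kcnd3 was at 33.2 to 49.5 CPM in the striatum, where it was called lower, and at 204 and 154 CPM in the thalamus, so the Kv4 genes Kcnd2 and Kcnd3 lay on opposite sides in the striatum.

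Other genes of potassium channels and their accessory proteins, 24 in a list of their own, were all in the table, and 15 passed the level filter. Of these, 11 were called in some area, against the 31.5% of all genes. Among them 5 were higher somewhere, against 22.6%, and 11 lower somewhere, against 19.8%. Kcnab1, a Kv1 beta subunit that speeds inactivation, was at 1027, 1524, 1300.4 and 1117 CPM in the striatum against 127, 174, 179 and 134 CPM, where the Kv1 gene Kcna4 was high too. Kcnab3, another Kv1 beta subunit, was lower in the striatum and higher in the cortex, at 87.6, 56.8, 93.6 and 60 CPM in the cortex. Kcnmb4 and Abcc8 were higher in the cortex as well.

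Between the 4 barcode sets, 15 of the 65 members were at least 2-fold apart in at least 1 pair of sets over all kept spots, where 11.7% of all genes were. Without set 4 there were 8. Within the cortex there were 9, where 10.1% were, and 5 without set 1. Within the striatum there were 12, where 10.6% were, and 5 without set 4. These differences are between sections of unknown genotype that also differ in the areas they hold and in depth, and genotype, animal, section and library cannot be told apart.

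Kcnj13 and Kcne2 had the widest range over whole sets. Kcnj13 was at 13.2, 0.730, 7.82 and 2.91 CPM and Kcne2 at 10.1, 0.976, 4.66 and 4.46 CPM, in sets with 88, 0, 96 and 33 choroid-marker spots. Kcnq5, a Kv7 channel of the M-current, was at 60.8, 213, 80.5 and 169 CPM. Its levels within the cortex were 81.9, 250.2, 96.9 and 252 CPM and within the striatum 102, 283, 117 and 278 CPM, with sets 2 and 4 above sets 1 and 3 in both areas. Kcnh3 was at 49.2, 167, 75.3 and 119 CPM over whole sets, at 77.1, 216, 94.3 and 200.2 CPM in the cortex and at 83.7, 206, 119 and 213 CPM in the striatum. Kcnip4 ran the other way, at 62.9, 18.9, 49.8 and 23.4 CPM over whole sets, 69.1, 23.6, 64.0 and 22.9 CPM in the cortex and 32.5, 10.2, 28.1 and 10.4 CPM in the striatum. For Kcnq5 and Kcnh3 sets 2 and 4 had the higher levels, and for Kcnip4 sets 1 and 3 had. The same split of the sets was seen over all genes. Of all genes, 0.619% were 2-fold apart between whole sets 1 and 3 and 0.959% between sets 2 and 4. In the other pairs of sets 4.22% to 7.35% were. Sets 2 and 4 also had the fewer counts per spot. Thinning all sets to the smallest sum left the log2 ranges at 1.80 for Kcnq5, 1.78 for Kcnh3 and 1.67 for Kcnip4, against 1.79, 1.75 and 1.68 without thinning. The thinning acted on summed counts and keeps the expected CPM, so it bears on counting error only. The part of the counts per spot in these ranges was not tested. The sixth, Kcng4, was at 4.76, 6.43, 4.48 and 15.1 CPM.

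**Figure D4:**
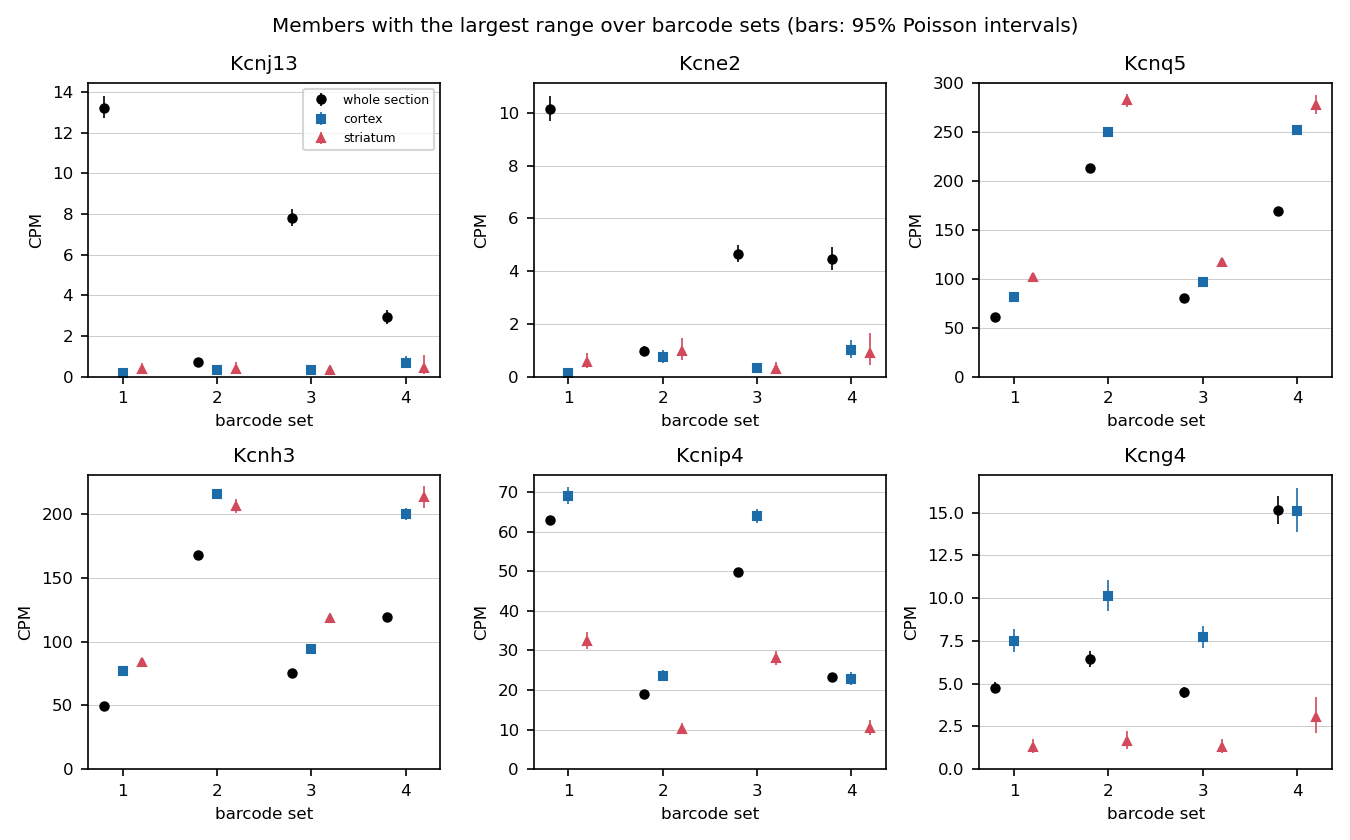
Level of Kcnj13, Kcne2, Kcnq5, Kcnh3, Kcnip4 and Kcng4, the members with the widest range over whole sets, in CPM for each barcode set over all kept spots, the cortex and the striatum, with 95% counting intervals. Kcnq5 is at 60.8 to 213 CPM over whole sets, and Kcnj13 and Kcne2 are at 1.01 CPM or below in the cortex and striatum.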

How the data were processed

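Raw counts per gene and spot were deposited by the authors as 1 table. Space Ranger and Seurat are named in the submitters' processing notes, while their versions, the genome build and the probes are not given in the sources used here. Spots with at least 500 counts were kept. For clustering, counts were scaled and log-transformed per spot, the 2000 most variable genes were taken without channel, Celsr and sex-linked genes, and values were centred per set (30 principal components, 15 neighbours, Leiden resolution 0.8, seed 0, scanpy 1.11.5, leidenalg 0.10.2). A cluster took the area whose markers had the highest mean log2 fold, if at least 3 were 2-fold higher, it led the next area by 0.25 and no other area had more markers among its 10 leading genes. An area counted in a set only where its summed markers were 2-fold higher, a rule added after seeing the data. CPM carry exact 95% Poisson intervals and ratios conditional binomial ones (scipy 1.17.1). Both cover counting error only, since sections are not replicates of a known group.

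Of the members, those named were, per area, up to 4 called higher and 2 called lower with the largest lowest difference, the most counted of each family, the 6 with the widest range over sets and those of the partner pairs. Other members named were chosen after their values were seen. The members, lists and rules were chosen with earlier results of these data known. With edgeR 4.0.16, TMM and RLE factors were computed for alternatives, and calls were tested on simulated data. Results of some genes are not reported here and these genes are not drawn, while counts and medians include them.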

Additional observations from a re-analysis of the deposited data

How the results depend on the processing

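No paired analysis was possible because the barcode sets were assigned to no mouse and the table was treated as 1 sample. Of the recomputed counts of members, 334 stayed within 1.5 times the main count and 62 did not, and of the recomputed values of named members 367 moved by less than the spread over sets, 71 moved by more and 0 turned sign. With TMM or RLE factors 14 members were higher in the cortex, against 8. Shares of all genes were recomputed for the calls in areas and clusters under TMM and RLE factors only. For the other settings, and with a set left out, only members were counted. Whether these counts moved differently from those of all genes was therefore not tested. TMM and RLE factors moved the median gene by 0.13 and 0.18 in the striatum, by -0.18 and -0.08 in white matter and by -0.33 and -0.20 in the ventricle lining on the log2 scale, and TMM by -0.15 in the Ccn2-led cluster. With 10 CPM added in place of 1, members called lower numbered 1 in the cortex, 7 in the basal forebrain, 8 in the hypothalamus, 14 in white matter and 17 in the ventricle lining. The same setting gave 0 higher in white matter and in the Vip-led and Nr4a2-led cortical clusters, 1 lower in the Vip-led cluster, 0 in the Nr4a2-led and Rorb-led clusters and 2 in the Ccn2-led cluster, and 5 higher and 13 lower in the Pvalb-led cluster. It also gave 7 members apart between whole sets, 4 within the cortex and 4 within the striatum, since it shrinks differences of genes with few counts. With a filter of 20 CPM, 1 member was lower in the cortex, 0 were higher in white matter and in the choroid plexus, 1 was higher in the ventricle lining, in the Vip-led and in the Lhx8-led cluster, 0 were called in the Nr4a2-led cluster, 1 was lower in the Rorb-led cluster and 9 were apart between whole sets, as fewer genes are tested. Without a filter 6 were higher in the ventricle lining.

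Hypothalamus: 0 members were called higher with TMM, RLE, 10 CPM added, 20 CPM as filter, thinned counts, resolution 0.4 or 1.2, no centring, 2000 counts per spot as minimum, or no lead required in naming, and 6 were called lower with no centring or no lead. Thinning gave 1 lower in the meninges and in the Rorb-led cluster and 1 higher in the Ccn2-led cluster. Resolution 0.4 gave 1 higher in the basal forebrain and 14 lower in white matter. With set 2 kept, 1 member, Kcna5, was higher in the choroid plexus. That setting and the one with no lead required were added after seeing the data. The cause of these changes was not tested unless given. The ventricle lining was not found at resolution 0.4 or without centring, nor the meninges without centring. Cortical and unnamed clusters were not recomputed under other clusterings.

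Leaving out each barcode set in turn gave 0 to 2 members higher in the basal forebrain, 1 to 2 in the hypothalamus, 1 to 2 in white matter, and 0 to 1 higher and 0 to 2 lower in the meninges. It gave 1 to 2 higher and 2 to 6 lower in the Nr4a2-led cluster, 0 to 2 higher and 7 to 12 lower in the Ccn2-led cluster, and 8 to 15, 5 to 9 and 5 to 11 members apart over whole sets, cortex and striatum. The thalamus, the ventricle lining and the Lbhd2-led and Pvalb-led clusters had 2 sets, so none was left out. The ventricle lining of set 4 held 802713 counts, which limits the precision of its values.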
